A study of Caenorhabditis elegans with 2 samples.

Results

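The genes described here belong by name to families that build or regulate the lysosome and the autophagosome. They comprise 73 of the 19973 protein-coding genes on the 6 nuclear chromosomes of Caenorhabditis elegans. Members were taken by name alone: every protein-coding gene named vha-, lgg-, atg-, epg-, cpr- or asp-, with hlh-30, mxl-3, bec-1, unc-51 and sqst-1 added. The rule used no measured value, although it was drawn up with earlier results of these data known. They fall into 2 regulators (hlh-30 and mxl-3), 26 autophagy genes, 20 genes for subunits of the vacuolar proton pump (V-ATPase), and 25 genes of the cathepsin B-like (cpr-) and aspartyl (asp-) protease families.

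Autophagy encloses cytoplasm in a double membrane, the autophagosome, which fuses with the lysosome. There the V-ATPase pumps in protons, and cathepsins and aspartyl proteases, which work best in acid, digest the contents. HLH-30, the worm orthologue of mammalian TFEB, is a basic helix-loop-helix activator of many of these genes and enters the nucleus on starvation, whereas MXL-3 is known to repress lysosomal lipase genes in fed animals. TFEB-type factors bind E-boxes of the form CACGTG, and a longer form of the CACGTG site is called the CLEAR element.

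The occupancy data were for NHR-41, a nuclear receptor of the family that includes vertebrate TR2 and TR4, mapped by chromatin immunoprecipitation and sequencing (ChIP-seq). There was 1 group of 2 biological replicates: whole L4 larvae of strain RW12221, aged 48.5 h and synchronised by bleaching and starvation at L1, with TY1, EGFP and 3xFLAG inserted at the endogenous nhr-41 gene by CRISPR. Chromatin was precipitated with an antibody against GFP. No other strain or stage was analysed. A peak list from a control strain was not used, and sites that any GFP immunoprecipitation might recover were therefore not set apart. Because whole animals were used, strong occupancy in few cells cannot be told apart from weak occupancy in many.

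A gene was counted as having a peak when a peak summit lay from 1000 bp upstream to 200 bp downstream of any of its annotated transcript 5' ends. In C. elegans many annotated 5' ends are trans-splice sites, so the true start of transcription can lie further upstream. Signal is the height the authors' peak caller gave each peak, and score is its rank stability between replicates, capped at 1000. The lowest score in the conservative list of 1069 peaks was 830. The ranked list of 48276 peaks held all 1069 of these with the same values, along with the peaks under the authors' threshold. Read depth was unknown. With 1 group there was no difference between conditions to test, and counts are therefore set beside the same count over all protein-coding genes.

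NHR-41 peaks of the conservative list lay at 8 of the 73 members, which is 11.0%, against 535 of all 19973 protein-coding genes, or 2.68%. The 8 were hlh-30, the autophagy genes lgg-1, lgg-2, atg-9 and epg-7, the V-ATPase genes vha-12 and vha-13, and the protease gene cpr-9. By family they were 4 of 26 autophagy genes (15.4%), 2 of 20 V-ATPase genes and 1 of 25 protease genes. The protease share, which rests on a single gene, was near the share of all genes.

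Most members also carried weaker peaks, but so did many genes. In the ranked list 54 members (74.0%) had a summit in the window, against 48.9% of all protein-coding genes, and the families stood at 76.9% for autophagy, 70.0% for V-ATPase and 72.0% for protease genes. At a score of 540 or more, 11 members (15.1%) had a summit, against 4.50% of all genes. The 3 that this lower score added to the conservative members were vha-19, asp-4 and cpr-3. The 19 members with no ranked peak were atg-4.2, atg-10, atg-16.1, epg-2, epg-5, unc-51, vha-1, vha-7, vha-9, vha-11, vha-16, vha-18, asp-7, asp-8, asp-9, asp-13, asp-14, asp-17 and cpr-1. At least 2 ranked peaks lay in the windows of 29 members (39.7%), against 19.8% of all genes.

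The amount of sequence searched was close to that of other genes. Members had a mean of 1478 bp in their windows, against 1459 bp over all protein-coding genes, with a median of 1201 bp for both. Among the 54 members with a single transcript 5' end, 5 (9.26%) had a conservative summit, against 2.02% of the 14498 protein-coding genes with a single 5' end. For ranked peaks the shares were 68.5% of these members and 43.1% of these genes. The largest window belonged to hlh-30, at 5547 bp over 10 distinct 5' ends.

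**Figure D1:**
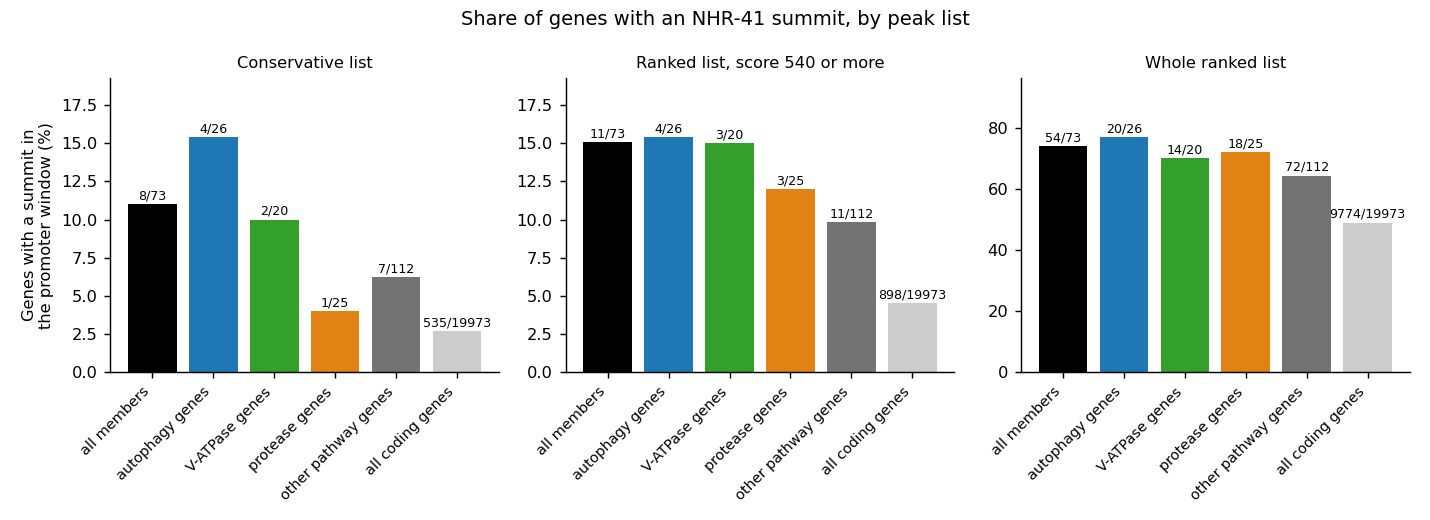
Share of genes (%) whose promoter window held an NHR-41 summit, for all members, the 3 larger member families, the other genes of the pathway and all protein-coding genes, in the conservative list (left), the ranked list at a score of 540 or more (middle) and the whole ranked list (right, with its own axis range). Numbers over the bars are genes with a summit over genes counted; the members stand at 11.0%, 15.1% and 74.0%, against 2.68%, 4.50% and 48.9% of all genes.

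The strongest peak at any member belonged to hlh-30, on the minus strand of chromosome IV from 4014793 to 4034951. The peak ran from IV 4028298 to 4028377 (1-based, build ce11), with a signal of 194 and a score of 1000. Its signal was 87.9 in replicate 1 and 107.6 in replicate 2, a mean of 97.7 ± 13.9 (SD, n = 2). The median signal over the conservative list was 82.8, which is to be set beside the 194 and not beside the replicate signals. By signal the peak ranked 21 of 1069 in the conservative list and 23 in the thresholded list of each replicate. Counting hlh-30 itself, 14 genes had a conservative peak at or above this signal in their window.

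The position of the hlh-30 peak was internal to the gene. The gene has 13 annotated transcripts, and the summit lay in an intron, 207 bp upstream of the shared 5' end of transcripts W02C12.3b.1 and W02C12.3c.1. It was 6450 to 6617 bp downstream of the outermost 5' ends, 1271 bp upstream of the next inner one and 9290 bp or more upstream of the rest. With the 5' end of the gene record alone, hlh-30 had no conservative summit in its window. The listed entry was also narrow, at 80 bp against a median of 284 bp, and 2.43% of conservative peaks were narrower than that median. Both replicate peaks paired with it reached past it on each side, so this width describes the entry and not the occupied stretch. The 151 bases around the summit, read on the minus strand at chrIV:4028259-4028409 from the RefSeq sequence of WBcel235, are shown because this is the site the regulator's signal rests on. GC made up 62.9% of them, against a median of 47.0% over all conservative summits, and capitals mark CTCTC.
hlh-30: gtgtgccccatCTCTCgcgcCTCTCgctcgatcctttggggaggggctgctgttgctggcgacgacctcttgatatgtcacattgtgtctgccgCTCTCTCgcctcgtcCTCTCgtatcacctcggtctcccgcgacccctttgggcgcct

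Weaker ranked peaks lay at other hlh-30 5' ends. The strongest of these was 274 bp upstream of the outermost 5' end, with a signal of 44.3 and a score of 491, and 25.5 in replicate 1 and 24.5 in replicate 2. A peak of 43.9 stood 999 bp upstream of an inner 5' end, at the edge of the window, with 11.7 and 29.9 in the replicate peak sets. The remaining 5 had signals of 5.78 to 37.2. The signal at the internal site was above that at each of the other 7 hlh-30 peaks in both replicates.

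The other regulator, mxl-3, had a peak under the authors' threshold. Its signal was 43.7 and its score 379, with the summit 900 bp upstream on chromosome X. The replicate peak sets gave 28.2 and 21.2.

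**Figure D2:**
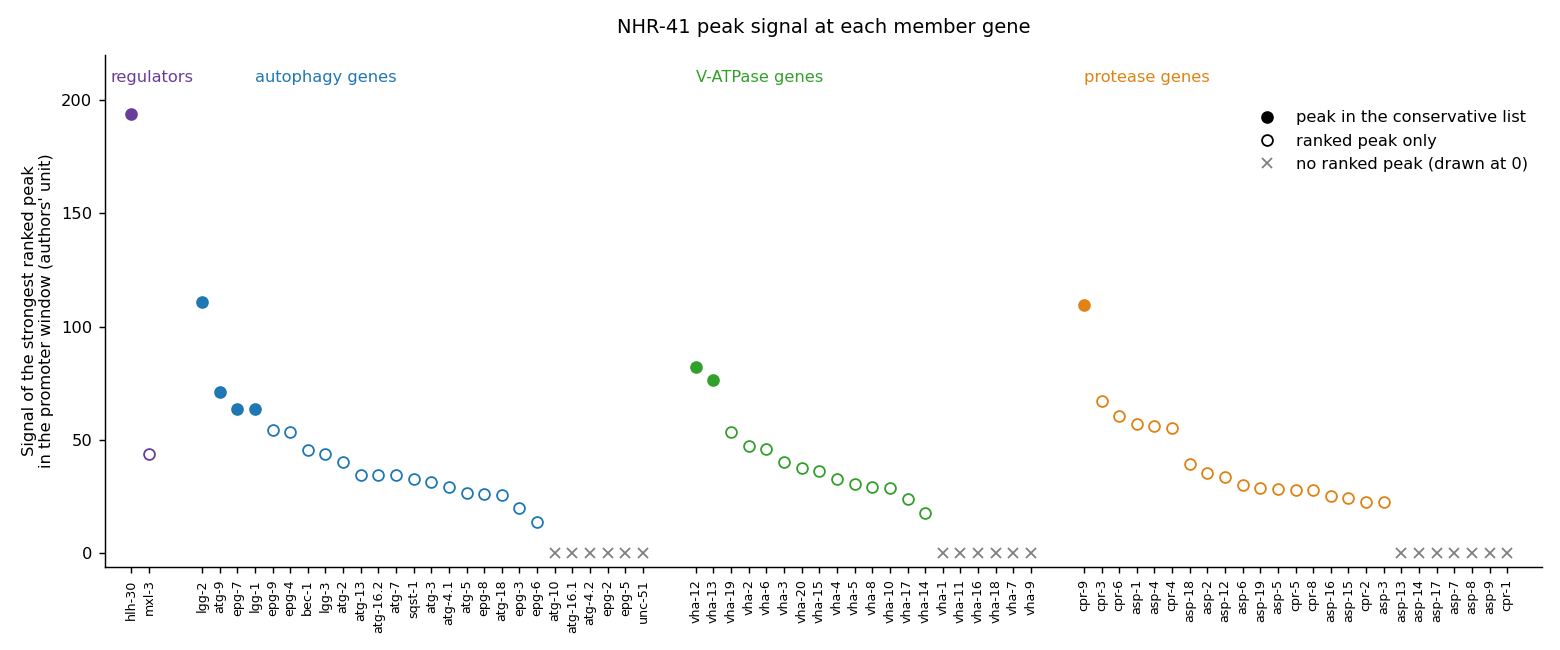
Signal of the strongest ranked NHR-41 peak (authors' unit) in the promoter window of each of the 73 members, ordered within each family; filled points are peaks of the conservative list, open points are ranked peaks outside it, and crosses at 0 are members with no ranked peak. The 194 at hlh-30 stands above lgg-2 (111) and cpr-9 (109.6), and the other 5 filled points lie between 63.7 and 82.0.

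The 4 autophagy genes with a conservative peak were lgg-1, lgg-2, atg-9 and epg-7. LGG-1 and LGG-2 are the GABARAP- and LC3-type ubiquitin-like proteins that are joined to lipid on that membrane, ATG-9 is a membrane protein that helps that membrane grow, and EPG-7 is a scaffold that links cargo to the early machinery. In each the summit of the strongest peak lay upstream of the 5' end.

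The lgg-2 gene had 2 conservative peaks with a summit in its windows. The stronger, at IV 10936076 to 10936359, had a signal of 111 and its summit 315 bp upstream, with 54.9 in replicate 1 and 55.1 in replicate 2 (mean 55.0 ± 0.133, SD, n = 2). The second, at IV 10935357 to 10935640, had a signal of 70.4 and replicate signals of 37.75 and 33.22. It lay in an intron, 460 bp upstream of the 5' end of ZK593.6b.1, the shorter transcript. Both replicates' own thresholded lists held the stronger peak, which makes lgg-2 and hlh-30 the only members with a summit in both of those lists. A further conservative peak, with a signal of 70.8, lay outside the windows, 1925 bp downstream of the 5' end of ZK593.6a.1.

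The lgg-1 gene had peaks on both sides of the threshold. At II 6348497 to 6348780 the summit was 920 bp upstream, with a signal of 63.7, a score of 946, and replicate signals of 28.0 and 42.6. Nearer to the gene, 243 bp upstream, a peak with a signal of 61.4 had a score of 748 and was therefore absent from the conservative list. Its replicate signals were 27.1 and 31.8. The signals of these neighbours differed by less than the replicate signals of the farther one.

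The other autophagy genes with a conservative peak had it closer to the 5' end. At atg-9 the peak at V 349103 to 349386 had a signal of 71.0 with the summit 140 bp upstream, and replicate signals of 32.0 and 40.3 (mean 36.2 ± 5.89, SD, n = 2). At epg-7 the peak at X 7334396 to 7334679 had a signal of 63.7, a score of 848 and the summit 176 bp upstream, and replicate signals of 26.8 and 38.8 (mean 32.8 ± 8.47, SD, n = 2). Both were absent from the other thresholded list of both replicates, and in the other ranked list their scores were 790 and 561. By score, epg-7 was the member just inside the threshold, and cpr-3, at 773, the one just outside.

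The 151 bases around 4 of these summits are shown on the strand of the gene, because each holds CACGTG or a form 1 base away from it. They stand at chrIV:10936143-10936293 (minus strand) for lgg-2, chrII:6348564-6348714 (minus strand) for lgg-1, chrX:7334463-7334613 (plus strand) for epg-7 and chrV:349170-349320 (plus strand) for atg-9. The summit is the middle base, and capitals mark TCACATGA at lgg-2 and lgg-1, TCACGTGA at epg-7 and, in the window of atg-9, CACGTG.
lgg-2: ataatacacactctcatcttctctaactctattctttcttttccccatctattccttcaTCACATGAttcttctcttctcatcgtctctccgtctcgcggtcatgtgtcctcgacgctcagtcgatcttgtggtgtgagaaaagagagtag
lgg-1: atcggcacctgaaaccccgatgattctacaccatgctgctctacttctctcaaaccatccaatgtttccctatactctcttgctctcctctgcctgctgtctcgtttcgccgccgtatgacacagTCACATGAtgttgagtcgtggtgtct
epg-7: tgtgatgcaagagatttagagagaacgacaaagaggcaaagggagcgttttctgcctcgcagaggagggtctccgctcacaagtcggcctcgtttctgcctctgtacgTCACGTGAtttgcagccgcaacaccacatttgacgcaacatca
atg-9: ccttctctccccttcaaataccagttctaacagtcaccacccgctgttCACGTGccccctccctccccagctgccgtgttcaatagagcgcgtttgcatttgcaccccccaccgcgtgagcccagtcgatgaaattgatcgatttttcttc

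One autophagy gene had its strongest peaks outside the window. epg-9 encodes the orthologue of ATG101, a part of the kinase complex that starts autophagy. A conservative peak in its intron, at IV 2602051 to 2602334, had a signal of 126 and replicate signals of 53.0 and 77.9 (mean 65.5 ± 17.6, SD, n = 2). Its summit was 1051 bp upstream of the nearest 5' end and so missed the window by 51 bp. A further conservative peak at IV 2603542 to 2603825, with a signal of 72.7 and replicate signals of 39.1 and 48.9, lay 440 bp downstream of a 5' end. Within the window the best epg-9 peak had a signal of 54.4 and a score of 54, with 11.0 in replicate 1 and 38.4 in replicate 2. Its score was 741 in the other ranked list of both replicates. No other member had a conservative summit inside the gene but outside its window.

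The remaining autophagy genes had ranked peaks under the authors' threshold or none. bec-1, the Beclin 1 orthologue, had a peak of 45.4 with a score of 264, 345 bp upstream, and replicate signals of 21.6 and 20.1. That summit lay within 500 bp of the snoRNA gene T19E7.29. sqst-1, the orthologue of the cargo receptor p62, had 5 ranked peaks, the strongest with a signal of 32.9 and a score of 72. unc-51, which encodes the kinase that starts autophagy, had none. epg-4, for an endoplasmic reticulum membrane protein, had a peak of 53.5 (score 451, replicate signals 26.6 and 23.1), and lgg-3, the ATG12 orthologue, one of 43.8 (score 300, replicate signals 18.4 and 25.6). The other 11 autophagy genes with a ranked peak had best signals of 13.7 to 40.1.

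**Figure D3:**
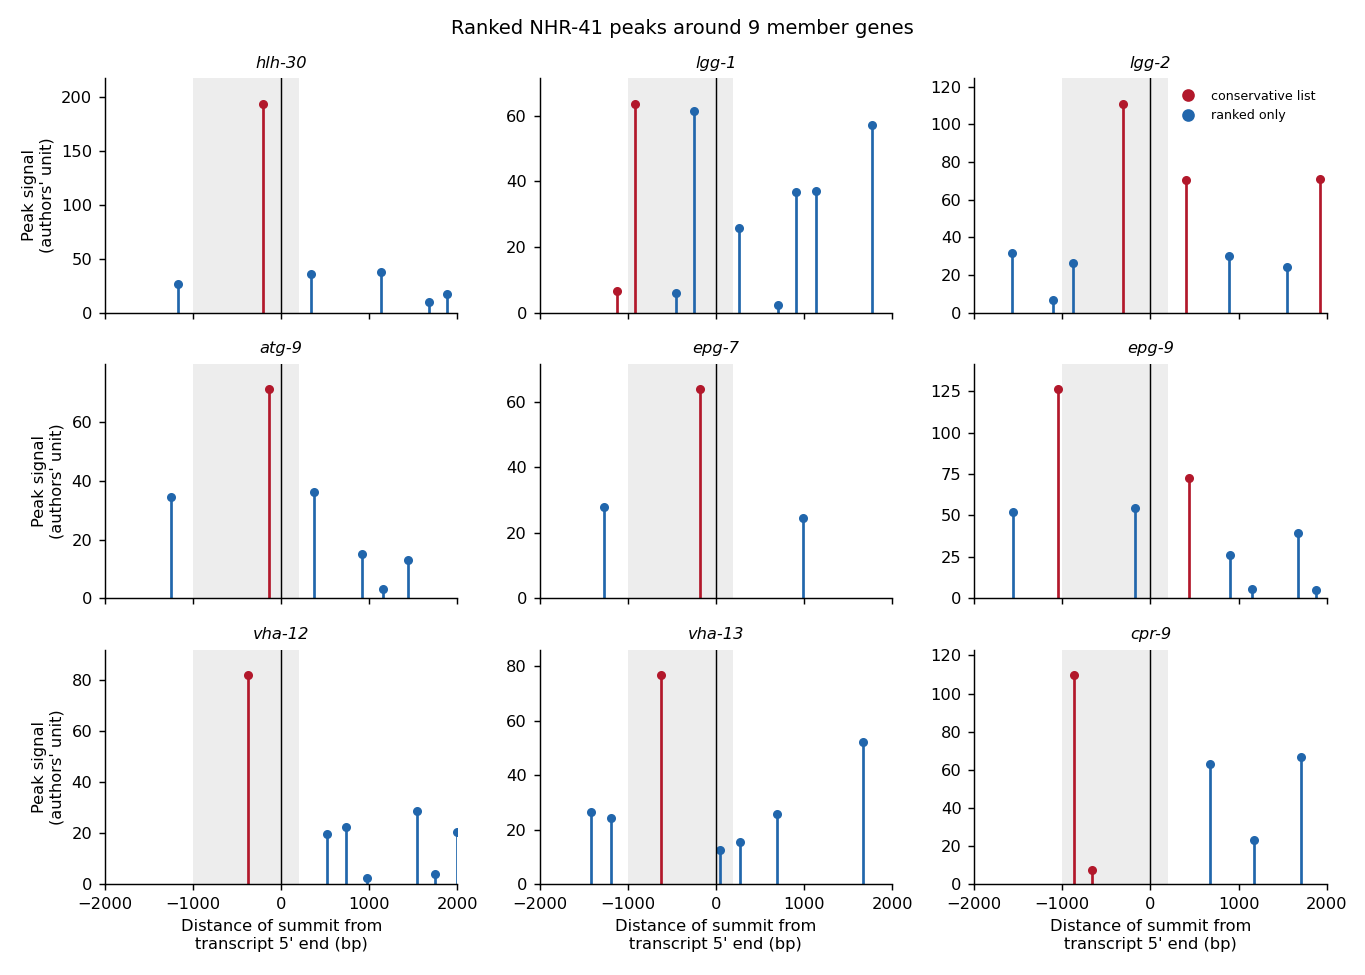
Signal of ranked NHR-41 peaks (authors' unit) against the distance of the summit from a transcript 5' end (bp, upstream negative), for the 8 members with a conservative summit and for epg-9; for genes with several 5' ends the one that belongs to the strongest peak was used. Red stems are peaks of the conservative list and blue stems are other ranked peaks. The grey band is the window of the 5' end drawn, which the epg-9 peak of 126 misses by 51 bp. Windows of other 5' ends were also counted but are not drawn. The lgg-2 peak of 70.4, plotted 404 bp downstream, was counted in such a window.

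The V-ATPase genes with a conservative peak were vha-12 and vha-13. They encode the orthologues of the B and A subunits, which together form the ring on the cytosolic side of the pump that splits ATP. At vha-12 the peak at X 4190573 to 4190856 had a signal of 82.0 with the summit 379 bp upstream, and replicate signals of 31.2 and 44.7 (mean 38.0 ± 9.57, SD, n = 2). At vha-13 the peak at V 14350949 to 14351232 had a signal of 76.6 with the summit 618 bp upstream, and replicate signals of 40.2 and 43.9 (mean 42.0 ± 2.57, SD, n = 2). The vha-13 summit fell in an exon, outside the coding part, of the neighbouring gene cept-2, although the window of no other protein-coding gene held it. The bases at vha-12, at chrX:4190640-4190790 on the plus strand, are shown as the stronger of these sites, with CTCTC or its reverse complement in capitals.
vha-12: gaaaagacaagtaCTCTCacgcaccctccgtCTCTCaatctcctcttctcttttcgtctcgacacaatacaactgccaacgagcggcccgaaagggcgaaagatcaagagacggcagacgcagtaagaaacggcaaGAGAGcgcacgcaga

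V-ATPase peaks under the threshold included those of other parts of the pump. vha-19, which encodes an accessory subunit, had a peak of 53.4 with a score of 624 and replicate signals of 29.3 and 26.2. The proteolipid genes vha-2 and vha-3 of the membrane part had peaks of 47.5 and 40.3. At vha-2 the replicate signals were 14.2 and 31.3, with a score of 118, and at vha-3 they were 22.8 and 24.4, with a score of 420. vha-6, for an intestinal subunit a of the membrane part, had a peak of 46.0 with a score of 99 and replicate signals of 13.6 and 28.5. In this ranked list vha-19 and vha-3, with replicate signals close to each other, scored above vha-2 and vha-6. At vha-2 and vha-6 replicate 2 was more than 2 times replicate 1. The other ranked list of both replicates did not keep this order. There the scores were 509 at vha-19, 438 at vha-2, 179 at vha-6 and 93 at vha-3. The other 8 V-ATPase genes with a ranked peak had best signals of 17.7 to 37.4. vha-11 and vha-9, which had no peak in this ranked list, did have one in each replicate's own ranked list. The signals were 25.6 and 29.7 at vha-11 and 16.4 and 14.3 at vha-9. The other ranked list of both replicates held a peak of 39.1 at vha-1 and one of 17.3 at vha-9.

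The protease families had a single conservative member, and its stronger peak lay at a tRNA gene. At cpr-9 the peak at V 12002046 to 12002329 had a signal of 109.6, with 36.15 in replicate 1 and 70.2 in replicate 2 (mean 53.2 ± 24.1, SD, n = 2). The summit lay 865 bp upstream of cpr-9 and inside the tRNA gene WBGene00014406, which runs from V 12002176 to 12002260, and it also fell in the window of gcy-33. A second conservative peak at cpr-9, at V 12002247 to 12002530, had a signal of 7.39 and its summit 664 bp upstream, outside the tRNA gene but within 500 bp of it. It rests on the same pair of replicate peaks as the stronger one. When peaks with a tRNA, snRNA or snoRNA gene within 500 bp were left out, 7 members kept a conservative summit, against 2.18% of all genes, and cpr-9 was the one lost. cpr-9 also had no conservative summit when summits were assigned to the nearest transcript 5' end within 2000 bp. Whether the stronger peak belongs to the tRNA gene or to either neighbour was not tested. The bases at chrV:12002113-12002263, plus strand, are shown for this reason, with the tRNA gene in capitals.
cpr-9: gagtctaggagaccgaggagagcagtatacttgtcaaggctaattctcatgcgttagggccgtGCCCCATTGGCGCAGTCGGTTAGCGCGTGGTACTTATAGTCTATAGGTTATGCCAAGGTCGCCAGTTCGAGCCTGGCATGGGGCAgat

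At several other protease genes the paired replicate signals differed. cpr-6, a cathepsin B-like gene, had paired signals of 12.6 in replicate 1 and 47.7 in replicate 2. In replicate 1's own ranked list the strongest peak in the cpr-6 window had a signal of 21.2. The cpr-6 peak of 60.4 had a score of 58 in this ranked list and 740 in the other ranked list of both replicates. In the list of replicate 2 alone its score was 991, which does not compare the replicates. asp-1, an aspartyl protease gene known from the intestine, had 15.4 in replicate 1 and 41.3 in replicate 2, with a signal of 56.8 and a score of 163. At cpr-4 the replicate signals were 18.95 and 37.98, with a signal of 55.1 and a score of 406. In the other ranked list of both replicates the score was 565 at asp-1 and 551 at cpr-4.

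cpr-3 and asp-4, a cathepsin D-like aspartyl protease gene, were the protease genes next to the threshold. cpr-3 had a signal of 67.0, a score of 773 and replicate signals of 24.1 and 43.7. asp-4 had a signal of 56.0, a score of 591 and replicate signals of 24.3 and 29.0. cpr-1 appeared only in replicate 2, with a peak of 32.3 and a score of 885 in that replicate's own list. The remaining 12 protease genes with a ranked peak had best signals of 22.4 to 39.4. Without a peak in this ranked list, asp-14 had signals of 12.8 and 21.5 in the replicates' own ranked lists.

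The replicates differed in how many members they called. In the thresholded list of replicate 1, with 347 peaks, 2 members (2.74%) had a summit, against 0.871% of all genes. In that of replicate 2, with 676 peaks, 5 members (6.85%) had a summit, against 1.81% of all genes, and they were hlh-30, lgg-2, cpr-1, cpr-6 and cpr-9. In the other thresholded list of both replicates, with 1136 peaks, 6 members (8.22%) had a summit, against 2.80%.

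The columns of replicate signals in the ranked list carry no replicate number. In the first, 28441 of 48276 entries had the same coordinates and signal as a peak in replicate 1's own ranked list and 0 as one in replicate 2's, and in the second 29471 matched replicate 2 and 0 matched replicate 1. The 109 ranked peaks at members came from 94 pairs of replicate peaks, of which 55 were matched in both lists. The second set was higher at 70 of these 94 pairs (74.5%), against 63.8% of all 41154 pairs. It was higher at 8 of the 9 conservative pairs at members, by little at the stronger lgg-2 peak (54.9 and 55.1). The share over all conservative pairs is not given here. The median ratio of the second to the first was 1.2 at members, against 1.15 over all pairs.

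Large differences between paired replicate signals ran mostly in 1 direction. The second signal was at least 2 times the first at 15 of 94 pairs, against 9.15% of all pairs, with 7 of 43 at autophagy, 3 of 20 at V-ATPase, 4 of 24 at protease genes and 1 of 7 at the regulators. The first was at least 2 times the second at 1 pair (1.06%), against 2.06% of all pairs. That pair lay 21 bp upstream of an inner 5' end of bec-1, with 33.13 in replicate 1 and 13.2 in replicate 2. Over the 94 pairs Pearson's r between the replicate signals was 0.77 and Spearman's rho 0.417, and without the conservative hlh-30 pair they were 0.608 and 0.398. These describe peaks of the same pair of libraries and are not a test.

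**Figure D4:**
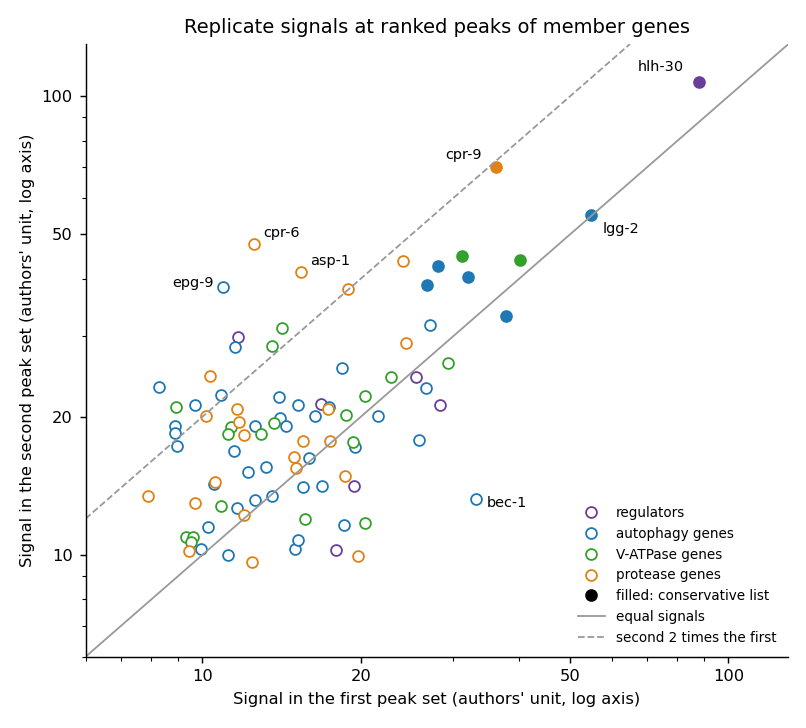
Signal in the second peak set, matched to replicate 2, against signal in the first, matched to replicate 1 (authors' unit, log axes), for the 94 pairs of replicate peaks at members; filled points are pairs of the conservative list, the solid line is equality and the dashed line a second signal 2 times the first. The hlh-30 point is highest in both sets, and cpr-6, asp-1 and epg-9 lie above the dashed line.

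Most summits in the window lay upstream, at members as at other genes. The window itself reaches 1000 bp upstream but only 200 bp downstream, which favours this. For hlh-30 the distance is to the inner 5' end nearest its internal peak. The best summit was upstream of the 5' end at 8 of 8 members, with a median distance of -347 bp, against 92.5% of all genes with one, whose median was -297 bp (negative is upstream). In the ranked list the best summit was upstream at 41 of 54 members, against 81.2% of all genes with one.

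E-boxes of the form CACGTG were present at some of these summits and common in promoters at large. All motifs were searched on both strands. The 10 conservative member peaks came from 9 pairs of replicate peaks, because both cpr-9 peaks share a pair. Within 75 bp of the summit CACGTG occurred at 2 of 10 conservative member peaks (atg-9 and epg-7), against 6.64% of all 1069 conservative summits and 3.75% of ranked summits outside that list. The 8-base form TCACGTGA, which contains CACGTG, occurred at 1 of 10 (epg-7), against 4 of 1069 summits (0.374%). In windows of 1201 bp around the gene's 5' end, CACGTG lay at 16 members (21.9%), against 18.4% of all protein-coding genes, and TCACGTGA at 3 (4.11%; atg-3, atg-13 and epg-7), against 1.89%. The 10-base CLEAR site lay at 0 member summits and 0 member promoters, against 0.0935% of summits and 0.0601% of promoters.

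Sites of nuclear receptors were not found within 75 bp of these summits. AGGTCA, the core that TR2-type receptors bind, lay at 0 of 10 member peaks, against 10.2% of all conservative summits, and AAGGTCA, which contains it, at 0 of 10, against 4.12%. With 100 bp to each side the counts were 2, against 128 of all 1069 conservative summits, and 1, against 49 of 1069. In promoters AGGTCA lay at 22 members (30.1%), against 26.7% of all genes, and AAGGTCA at 8 (11.0%), against 9.63%. The GATA site TGATAA, bound by intestinal regulators, lay at 1 of 10 member peaks, against 22.7% of all conservative summits. That match was in the window of the weaker cpr-9 peak. TGATAA lay at 60 member promoters (82.2%), against 72.0% of all promoters. With 10 peaks a share cannot be set with any precision, and no match says only that the letters are absent from these windows.

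Another pair of sequences was searched after the windows had been read. TCACATGA, which differs from TCACGTGA at a single base, lay at 2 of 10 member peaks (lgg-1 and lgg-2), against 1.03% of all conservative summits, and at 6 member promoters (8.22%), against 4.44%. CTCTC lay at 9 of 10 member peaks, against 45.3% of conservative summits and 23.4% of the other ranked summits, with 5 matches in the hlh-30 window. With 50 bp to each side TCACATGA lay at 1 of 10, against 0.468% of conservative summits, and CTCTC at 6 of 10, against 35.5%. It was in 79.5% of member promoters and 80.2% of all promoters. Because these sequences were picked from the same windows, the counts are a description of them.

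Genes of the same pathway outside these families were counted from a list of 117 names, of which 112 matched a protein-coding gene. Of the 112, 7 (6.25%) had a conservative summit, between the 11.0% of members and the 2.68% of all genes, and 72 (64.3%) had a ranked peak, against 48.9% of all genes. At a score of 540 or more the count was 11 (9.82%), against 4.50% of all genes. The 7 were the lysosomal hydrolase genes cpz-1 (cathepsin Z-like) and aagr-2 (acid alpha-glucosidase related), the trafficking genes vps-39, rab-7 and rab-5, the regulator mdl-1 and the TOR activator rheb-1.

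Their signals lay between 68.1 and 102, below that of hlh-30. cpz-1 and aagr-2 each had a signal of 102, with replicate signals of 55.2 and 43.1 at cpz-1 and 38.9 and 71.2 at aagr-2. The cpz-1 summit lay within 500 bp of the snRNA gene F32B5.9. vps-39, a subunit of the complex that tethers late endosomes to lysosomes, had 97.0 (replicate signals 39.8 and 57.6). rab-7, the GTPase of late endosomes, had 85.4 with a score of 938 and replicate signals of 25.5 and 56.2, and its summit also lay in the windows of mex-1 and W03C9.5. rab-5, the GTPase of early endosomes, had 81.7 (replicate signals 31.8 and 51.1) and shared its summit with nmat-2.

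The regulators mdl-1, rheb-1 and pha-4 each had the higher signal in replicate 1. mdl-1, a Mad-like partner of Max-type proteins, had a signal of 71.5, with 45.5 in replicate 1 and 32.6 in replicate 2. rheb-1 had 68.1 and a score of 852, with 40.3 in replicate 1 and 28.3 in replicate 2, and shared its summit with spk-1. pha-4, which encodes a FoxA factor, had 60.4 and a score of 616, with 34.9 in replicate 1 and 24.5 in replicate 2. The next were the sorting nexin gene snx-1 (59.8), the lipase gene lipl-2 (53.5), the lysosomal membrane gene lmp-1 (52.8), lmtr-3, of the complex that anchors TOR to lysosomes (52.7), and the Rab2 gene unc-108 (52.6), all under the authors' threshold.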

How the data were processed

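Each of the 2 replicates was a ChIP-seq library from whole L4 larvae, with chromatin sonicated to 200 to 800 bp, per the labels. The authors deposited 8 peak lists on build ce11. Per the submitters' notes, alignments of the replicates and of a control went into them, and the ranking used the irreproducible discovery rate. Aligner, peak caller and versions: not given in the sources used here. Each score in column 5 was deposited by the authors as a value of at most 1000. The signal in column 7 was deposited by the authors as their peak caller gave it, with its baseline not given in the sources used here. It served only to describe and rank peaks within a list. A further 6 columns of replicate signals in other lists were not used. Read totals were not used, so no depth limit is given, and signals are not read counts.

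Summits were assigned to protein-coding genes of Ensembl release 115 on WBcel235, the same assembly as ce11, with sequence from RefSeq. Counts of genes with a conservative summit are set beside the share of all protein-coding genes called by the same rule. Motif windows reached 75 bp to each side of a summit. Named genes were members with a conservative summit, the regulators and bec-1, unc-51, sqst-1 and lgg-1, the 12 other members with the highest ranked signal, members called in 1 replicate list only, and pathway genes with a conservative summit or among the 6 next by signal. The members, lists and motifs were chosen with earlier results of these data known. No p-value was computed, because there was 1 group. Alternatives were other promoter lengths and assignment rules, the other lists, a score of 1000, each replicate's own list, and lists without peaks near small RNA genes or with 1 peak per pair of replicate peaks. The assignment was checked on simulated peaks. Python 3.11.15, pandas 2.3.3, NumPy 2.4.6, SciPy 1.17.1, Biopython 1.88 and matplotlib 3.10.9 were used.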

Additional observations from a re-analysis of the deposited data

How the results depend on the processing

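The count of 8 members with a conservative summit, against 2.68% of all genes, was 5 with a promoter of 500 bp, against 1.90%. It was 6 to 9 under the other alternatives that kept both replicates, against 1.94% to 3.89%, and 2 to 5 in the replicates' own lists, against 0.871% to 1.81%. The 7 other genes of the pathway were 4 with a promoter of 500 bp, 5 to 10 under the others, and 1 to 4 in the replicates' own lists. The shares of all genes beside these are the same as for the members. The 54 members with a ranked peak were 11 at a score of 540 or more, against 4.50% of all genes, and 48 to 66 otherwise, with 50 to 54 in the replicates' own ranked lists. Shares of all genes for the counts other than 11 are not given here. Those counts therefore do not set members apart from genes at large. The hlh-30 signal of 194 is that of the list of both replicates. Single replicates gave 87.9 and 107.6, which are not on the scale of the list signal and are not read as a change. The second replicate signal was higher at 74.5% of member pairs, against 63.8% of all pairs, and at 88.9% of the conservative member pairs. No share over all conservative pairs is given here. With 100 bp to each side of the summit AGGTCA was at 2 and AAGGTCA at 1 of 10 member peaks, and with 50 bp TCACATGA was at 1 and CTCTC at 6. Over 11 alternatives lgg-2 was called in 11, hlh-30 in 10, vha-12 in 9, atg-9 and vha-13 in 8, and epg-7, lgg-1 and cpr-9 in 7. The cause of these changes was not tested. No paired analysis was possible because there was 1 group. Counts on so few genes, with 2 replicates and no read depth, limit what the shares can show.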
